A study of Homo sapiens with 12 samples.

Results

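GATA4, LIN28A, ACOX2, B4GALNT1, GPC3, NEURL1B and HAUS1 are 7 of the 27864 genes in a count table of T47D cells, a luminal, estrogen receptor-positive breast cancer line that carries an activating PIK3CA mutation. They were picked by symbol because their counts were lower with the PI3K alpha inhibitor BYL719 (alpelisib) in control cells and fell less, or not at all, in NF1 knockout cells. All 7 were found, and all 7 were among the 16081 genes with enough counts to test. The choice rests on the measured response to BYL719 in each line, so the responses of these genes are given below as a description without a test. The working name of the set calls these genes non-mitotic repressions lost with NF1. The data and textbook knowledge went against that name for some of the genes. HAUS1 encodes a spindle protein, GPC3 hardly fell in the control line, and ACOX2, LIN28A and B4GALNT1 still fell in the knockout line.

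BYL719 blocks the p110 alpha catalytic subunit of PI3K, the lipid kinase that relays growth factor signals to AKT and mTOR. Neurofibromin, the product of NF1, speeds GTP hydrolysis by RAS and so turns RAS off, and its loss leaves RAS and the MAPK cascade more active. The genes come from different pathways. GATA4 is a zinc finger transcription factor of heart, gut endoderm and gonad. LIN28A is an RNA-binding protein of embryonic stem cells that blocks the maturation of let-7 microRNAs. ACOX2 is the peroxisomal oxidase of branched-chain fatty acids and bile acid intermediates, and B4GALNT1 is the Golgi enzyme that makes the gangliosides GM2 and GD2. GPC3 is a heparan sulfate proteoglycan of the cell surface that binds Wnt and hedgehog ligands. NEURL1B is an E3 ubiquitin ligase that acts on Notch ligands. HAUS1 is a subunit of augmin, the complex that seeds new microtubules on the sides of spindle microtubules.

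Poly(A) RNA was sequenced from 4 groups, each treated for 48 h: CTRL cells with the vehicle DMSO (n = 3), CTRL cells with 3 µM BYL719 (n = 3), NF1KO cells with DMSO (n = 2, numbered 2 and 3) and NF1KO cells with 3 µM BYL719 (n = 3). NF1KO DMSO replicate 1 was not analysed here. How NF1 was deleted, what the CTRL cells carry, and whether the knockout line is 1 clone are not given in the sources used here, so a change between the lines cannot be told apart from a difference between clones. Nothing says that replicates came from separate cultures, so p-values measure the spread between these libraries.

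The libraries held 53283945 to 60148876 counts. Levels are CPM, counts scaled to a common library size after TMM scaling. NF1 was at 249 ± 39.6 CPM (SD, n = 3) in CTRL DMSO and 171 ± 37.1 (n = 3) in CTRL BYL719, against 0.475 ± 0.00633 (n = 2) and 0.613 ± 0.252 (n = 3) in the NF1KO groups, as the labels say. The 10 luminal markers were all detected and summed to 9929 to 14000 CPM per library. Their sums were 12030 to 14000 in CTRL BYL719 and 9929 to 11430 in the other groups. Basal, endothelial and leukocyte marker sums reached at most 3.71 CPM. The fibroblast sum, which is nearly all COL1A1 since 5 of its 6 markers stayed under 1 CPM, moved with the groups: 49.8 to 55.4 CPM in CTRL DMSO, 27.5 to 35.9 in CTRL BYL719, 25.9 to 26.1 in NF1KO DMSO and 16.8 to 21.3 in NF1KO BYL719. Of 17 embryonic, germ cell and endoderm markers, 13 stayed under 1 CPM in all libraries and 4 of these were at 0, so most markers of the cells that GATA4, LIN28A and GPC3 are best known from were near 0. Of the other 4, ALB, the serum albumin gene of liver, had group means of 646 and 688 CPM in CTRL and 291 and 325 in NF1KO. The part of COL1A1-expressing or ALB-expressing cells in the results was not tested. The CTRL libraries numbered 1 in the 2 treatments deviated from their groups together (r = 0.595 across genes), and results were also computed without them.

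RefSeq promoters were at hand for 2 of the 7 genes, HAUS1 and NEURL1B, both of which changed the sign of their response to BYL719 between the lines. The stretch before each transcription start (GRCh38.p14, plus strand, RefSeq) is shown because promoters of cell-cycle genes often hold a CHR element, a CCAAT box or an E2F motif. Capitals mark GC boxes (GGGCGG on either strand) and, in NEURL1B, a CHR element (TTTGAA or TTTAAA on either strand).
HAUS1, chr18:46104228-46104384: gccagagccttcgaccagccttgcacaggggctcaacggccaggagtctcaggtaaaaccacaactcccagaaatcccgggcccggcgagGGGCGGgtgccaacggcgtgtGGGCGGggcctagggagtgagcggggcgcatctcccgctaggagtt
NEURL1B, chr5:172641013-172641262: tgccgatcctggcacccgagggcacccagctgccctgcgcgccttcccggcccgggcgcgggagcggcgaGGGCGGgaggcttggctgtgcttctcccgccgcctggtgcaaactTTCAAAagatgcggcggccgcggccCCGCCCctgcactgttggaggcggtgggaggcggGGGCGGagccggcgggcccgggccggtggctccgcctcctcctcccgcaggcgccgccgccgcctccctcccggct
In RefSeq the HAUS1 stretch is the whole 157-base gap to ATP5F1A, a subunit gene of mitochondrial ATP synthase on the opposite strand. GENCODE v29 has HAUS1 from 46104332 and ATP5F1A up to 46104334, so there the whole stretch lies inside the 2 genes. The HAUS1 stretch held 2 GC boxes, a motif found in 37.3% of all 35116 RefSeq promoters over a window of that length. The 250 bases of NEURL1B held 3 GC boxes (42.6% of promoters) and 1 CHR match 135 bases before the start (21.9%). Neither stretch held a CCAAT box (CCAAT), an E2F motif (TTTGGCGC, TTTCCCGC, TTTCGCGC or TTTGCCGC), an E-box (CACGTG), a FOXO motif (GTAAACA), an AP-1 motif (TGANTCA), an ETS motif (CCGGAAGT) or a GATA motif (AGATAA or TGATAA), on either strand, and HAUS1 held no CHR match (13.2% of promoters did). Over the HAUS1 window these motifs stood, in that order, in 24.2%, 1.88%, 4.7%, 1.82%, 4.33%, 3% and 9% of promoters, and over the NEURL1B window in 32%, 2.79%, 6.34%, 2.98%, 6.57%, 3.42% and 14.6%. The marked matches do not overlap. A match of letters describes the window alone.

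For LIN28A the sequences that matter are those of its target. LIN28 proteins are known to bind the GGAG of the let-7 hairpin, and let-7 in turn pairs through its seed with sites in LIN28 mRNAs. Shown from RefSeq are the mature miRNA with its seed (bases 2 to 8) in capitals and the hairpin with GGAG in capitals, and from GENCODE v29 transcripts the sites in the 3′ UTRs with the seed match CTACCTC in capitals.
let-7g-5p: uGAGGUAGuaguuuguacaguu
let-7g hairpin: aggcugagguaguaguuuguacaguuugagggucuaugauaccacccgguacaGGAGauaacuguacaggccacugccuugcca
LIN28A site: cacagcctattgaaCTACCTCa
LIN28B site 1: cccggttgcaaagtCTACCTCa
The seed was the same in 8 mature let-7 entries, and 9 of 11 let-7 hairpins held GGAG. The LIN28A 3′ UTR held 1 site and that of its paralog LIN28B held 4. Per gene only the protein-coding transcript with the longest 3′ UTR was read, and there CTACCTC stood in 9.58% of 19115 genes. Sites in other transcripts were not counted. Poly(A) libraries do not measure mature microRNAs, so let-7 itself has no value here.

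The 7 genes fell into 3 kinds of response. In the knockout line BYL719 raised HAUS1 and GPC3, left GATA4 and NEURL1B slightly above their DMSO level, and lowered ACOX2, LIN28A and B4GALNT1 by less than in the control line. In the control line 6 of the 7 genes were lower in all 3 BYL719 libraries than in all 3 DMSO libraries (GPC3 was not), where 25.3% of all tested genes were. In the knockout line the groups did not overlap for any of the 7, with 4 genes higher (28.4% of tested genes) and 3 lower (26.2%). These counts follow from the choice of the genes and support nothing. In bulk RNA, fewer cells that express a gene and less RNA per cell cannot be told apart.

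**Figure D1:**
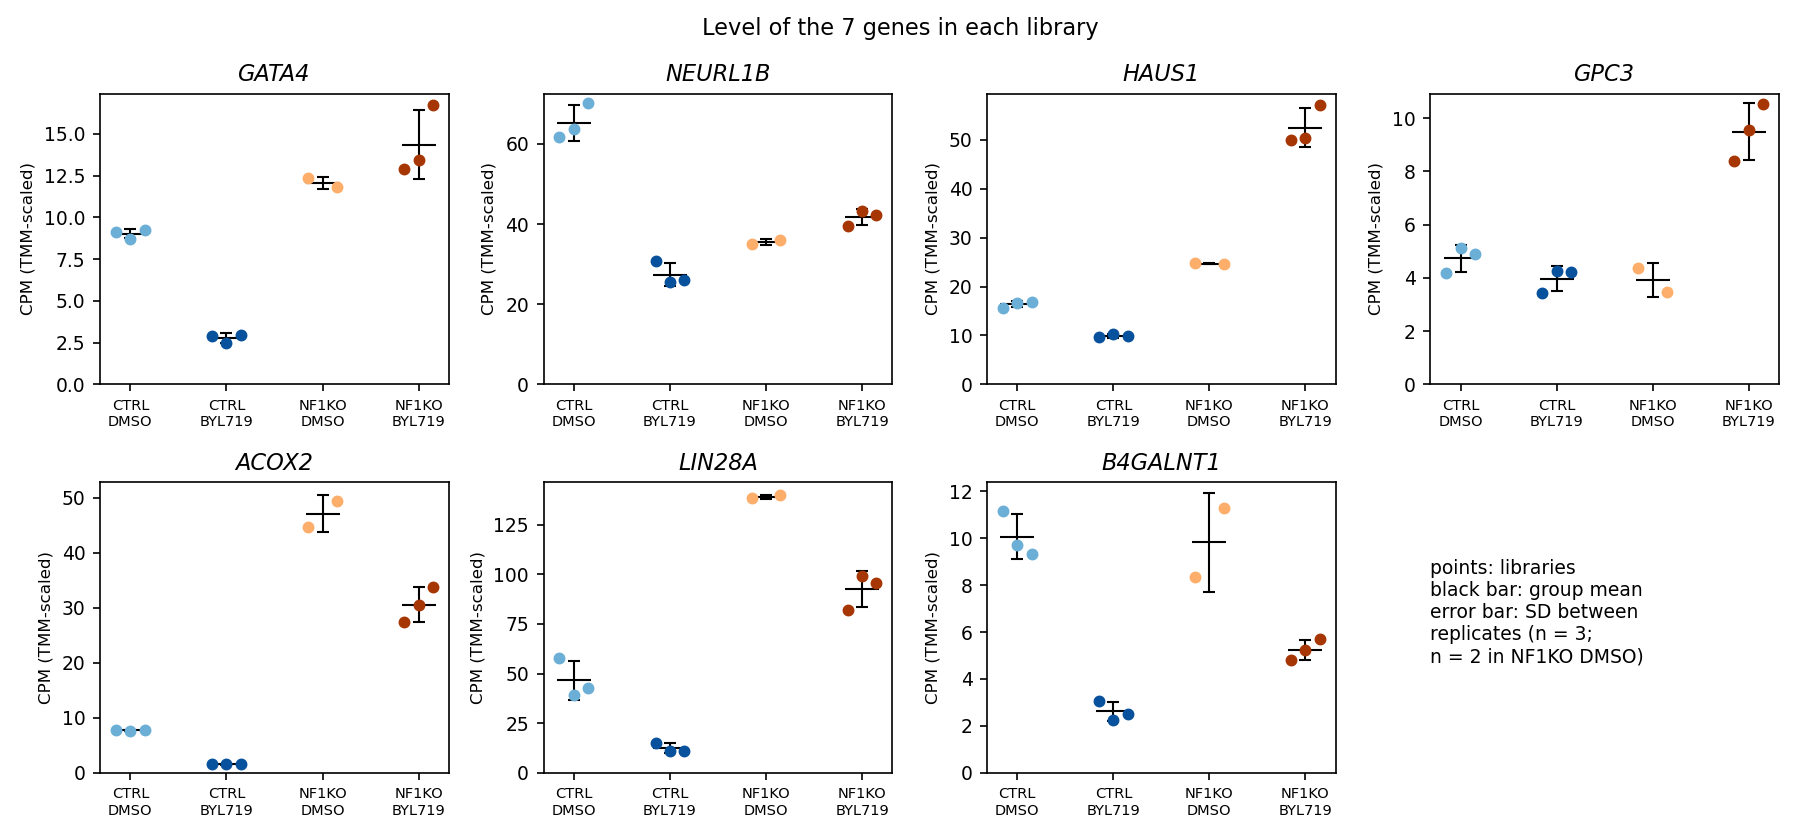
TMM-scaled CPM (linear axes from 0) of the 7 genes in the 11 libraries, 1 point per library, with the group mean and SD (n = 3, and n = 2 in NF1KO DMSO). In all 7 panels the 3 NF1KO BYL719 libraries lie above the 3 CTRL BYL719 libraries, while against CTRL DMSO they lie above for GATA4, HAUS1, GPC3, ACOX2 and LIN28A and below for NEURL1B and B4GALNT1.

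GATA4 (chr8:11676935-11760002, plus strand) was at 9.10, 8.73 and 9.26 CPM in the CTRL DMSO libraries and at 2.91, 2.46 and 2.95 in CTRL BYL719. The NF1KO DMSO libraries had 12.3 and 11.8 CPM, and the NF1KO BYL719 libraries 12.9, 13.4 and 16.7. The 4 groups did not overlap, and their order rose from CTRL BYL719 through CTRL DMSO and NF1KO DMSO to NF1KO BYL719. BYL719 left 30.7% of the GATA4 level in CTRL cells, a log2 fold change of -1.70 ± 0.12 (SE). In NF1KO cells the log2 fold change was 0.25 ± 0.12, so the responses of the lines differed by 1.95 ± 0.17. The small rise in NF1KO rested partly on replicate 3: without it the value was 0.12.

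Other GATA factors did not share this response. GATA3, the luminal regulator of breast epithelium, had group means of 576 and 747 CPM in CTRL DMSO and BYL719 and rose with BYL719 in CTRL (log2 fold change 0.37 ± 0.09, edgeR adjusted p = 0.00666), while GATA2 (0.07, adjusted p = 0.494) and GATA6 (0.04, adjusted p = 0.8) did not pass the test. In a list of 20 GATA factors and partners, 11 were tested. In CTRL, 4 of the 11 rose and 0 fell by edgeR (adjusted p under 0.05), where 44.4% of all genes were called, 22.6% higher and 21.8% lower. With replicate numbers as a block within each line, 5 rose and 1 fell in CTRL. Over all 16081 genes the CTRL calls were 7132 as reported and at most 10202 under any alternative. In NF1KO 1 rose and 0 fell, where 18.7% of all genes were called. The NF1KO counts with that block were 3 and 0, where calls over all genes went from 3014 to 6744. The difference was 0 higher and 1 lower, where 9.39% of all genes were called. The 4 included TRPS1, a GATA-type repressor (0.40 ± 0.09, adjusted p = 0.00446), and SRF, a MADS-box factor that works with GATA4 in the heart (0.30 ± 0.06, adjusted p = 0.00189). SRF was also the 1 gene of the list whose response differed between the lines, in the direction opposite to GATA4 (-0.37 ± 0.09, adjusted p = 0.0264). The SRF difference lost its call without filtering of low counts (adjusted p = 0.055) and without any 1 of 6 libraries (0.0543 to 0.139, highest without NF1KO DMSO replicate 3).

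LIN28A (chr1:26410817-26429728, plus strand) was at 57.7, 39.0 and 42.9 CPM in CTRL DMSO and at 15.2, 11 and 11 in CTRL BYL719. In NF1KO it was at 138 and 140 CPM with DMSO and at 82.2, 99.3 and 95.8 with BYL719. The highest CTRL library of each treatment was the one numbered 1, and no groups overlapped. The order of the groups was CTRL BYL719, CTRL DMSO, NF1KO BYL719 and NF1KO DMSO. The log2 fold change with BYL719 was -1.90 ± 0.16 in CTRL and -0.59 ± 0.16 in NF1KO, leaving 26.7% and 66.4% of the DMSO levels. Even after BYL719, LIN28A in NF1KO cells stood at 199% of the CTRL DMSO mean.

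LIN28B, the paralog with the same action on let-7, moved in the same directions by less. Its libraries had 21.2, 19.7 and 19.0 CPM in CTRL DMSO, 9.29, 8.89 and 8.47 in CTRL BYL719, 25.1 and 24.3 in NF1KO DMSO, and 19.1, 19.6 and 15.8 in NF1KO BYL719. LIN28B fell in CTRL (log2 fold change -1.17 ± 0.09, edgeR adjusted p = 1.14e-06) and in NF1KO (-0.44 ± 0.10, adjusted p = 0.0088), and its difference of 0.72 ± 0.13 passed the test (adjusted p = 0.00475). LIN28B is outside the set and was to be named as the paralog whatever its p. It was also among the 3 genes of its list with the smallest adjusted p in CTRL and in the difference. The lists were drawn up with earlier results of these data known, so these p-values are no independent support for LIN28A.

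In the list of let-7 pathway genes and textbook let-7 targets, 23 of 26 genes were tested. In CTRL 7 fell and 1 rose (background 21.8% lower and 22.6% higher), and in NF1KO 6 fell and 1 rose (background 8.47% lower and 10.3% higher). The difference was higher in 3 and lower in 1 (background 5.68% and 3.71%). The list's median log2 fold change was -0.15 in CTRL and -0.13 in NF1KO, against 0.01 in all genes for each line. IGF2BP3, an oncofetal mRNA-binding protein and let-7 target, fell in CTRL (-1.47 ± 0.13, adjusted p = 2.89e-06) and by less in NF1KO (-0.44 ± 0.13, adjusted p = 0.0384), a difference of 1.03 ± 0.19 (adjusted p = 0.00419). CDC25A, the phosphatase that activates CDK2, did likewise (-1.43 ± 0.09 and -0.48 ± 0.09, difference 0.95 ± 0.13, adjusted p = 0.000601). MYC, another known target, rose in both lines (1.14 ± 0.09 in CTRL, adjusted p = 1.18e-06, and 0.57 ± 0.10 in NF1KO, adjusted p = 0.0025). In the transcript with the longest 3′ UTR, 13 of the 26 genes in this list held a CTACCTC site. MYC and HMGA2 did not, and their other transcripts were not read. With the block within each line 13 fell and 2 rose in CTRL, 12 fell in NF1KO and 7 were higher in the difference. Calls over all genes grew as well under this block, from 3014 to 6744 in NF1KO and from 1510 to 4345 in the difference.

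ACOX2 (chr3:58505136-58537190, minus strand) was at 7.75, 7.51 and 7.81 CPM in CTRL DMSO and at 1.51, 1.54 and 1.62 in CTRL BYL719. The NF1KO libraries had 44.7 and 49.4 CPM with DMSO and 27.3, 30.5 and 33.7 with BYL719. No groups overlapped, and every NF1KO library was above every CTRL library. The log2 fold change with BYL719 was -2.30 ± 0.10 in CTRL, rank 33 from the lowest of 16081 genes, and -0.62 ± 0.09 in NF1KO. ACOX2 thus fell in both lines, and what differed was the size: 20.3% of the DMSO level was left in CTRL and 64.9% in NF1KO. The distance between the lines was 6.12-fold in DMSO and 19.6-fold in BYL719.

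The list of other peroxisomal genes did not fall as a whole with BYL719 in CTRL. ACOX3, the closest relative of ACOX2 in substrate range, did not pass the test in CTRL (-0.13, edgeR adjusted p = 0.135). Of 24 tested genes of peroxisomal fatty acid and bile acid oxidation, 6 rose and 5 fell in CTRL, where 22.6% and 21.8% of all genes did. Both CTRL counts were thus near the background. In NF1KO 2 rose and 3 fell (10.3% and 8.47% of all genes), and the list's median was 0.06 in CTRL. HSD17B4 and ECI2, which act further along the oxidation chain, fell in CTRL (-0.43 ± 0.06, adjusted p = 9.59e-05, and -0.60 ± 0.10, adjusted p = 0.000331). The thiolase ACAA1 and the transporter ABCD3 differed between the lines in opposite directions (-0.46 ± 0.10, adjusted p = 0.0104, and 0.41 ± 0.11, adjusted p = 0.0397). The ABCD3 call was lost without any 1 of 8 libraries (adjusted p = 0.0703 to 0.202), and the ACAA1 call without NF1KO DMSO replicate 2 (0.092). With the block within each line, 11 genes of the list rose in CTRL, 5 rose and 6 fell in NF1KO, and 4 were higher and 6 lower in the difference. The same block called 6744 of all 16081 genes in NF1KO and 4345 in the difference.

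B4GALNT1 (chr12:57623409-57633201, minus strand) was at 11.1, 9.70 and 9.34 CPM in CTRL DMSO and at 3.08, 2.27 and 2.5 in CTRL BYL719. In NF1KO it had 8.34 and 11.3 CPM with DMSO and 4.82, 5.24 and 5.69 with BYL719. The DMSO groups of the lines overlapped, and the BYL719 groups did not. The log2 fold change was -1.94 ± 0.15 in CTRL and -0.90 ± 0.15 in NF1KO, leaving 26.0% and 53.4% of the DMSO levels. It had the smallest difference of the 7 (1.04 ± 0.22). The NF1KO value was -1.11 without NF1KO DMSO replicate 2 and -0.67 without replicate 3.

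Among 22 tested genes of ganglioside synthesis and breakdown, 5 rose and 4 fell in CTRL, near the 22.6% and 21.8% of all genes. In NF1KO 5 rose and 2 fell (10.3% and 8.47% of all genes), and the median was 0.03 in CTRL. UGCG, which makes the glucosylceramide from which gangliosides start, rose in CTRL (from 95.1 ± 1.01 to 211 ± 11.4 CPM, log2 fold change 1.15 ± 0.10, edgeR adjusted p = 2.32e-06) and in NF1KO (0.91 ± 0.11, adjusted p = 0.000331). B4GALT5, the next enzyme, rose too (0.58 ± 0.07 in CTRL, adjusted p = 6.88e-05), as did the sialyltransferase ST6GALNAC6 (0.52 ± 0.09, adjusted p = 0.000453). ST3GAL5, the GM3 synthase (-0.45, adjusted p = 0.148), and ST8SIA1, the GD3 synthase (0.19, adjusted p = 0.698), did not pass the test and were under 2 CPM in every group. The B3GALT4 gene, whose product extends GM2 to GM1, fell in CTRL (-0.74, adjusted p = 0.0401). Its CTRL libraries overlapped, at 3.47 to 6.51 CPM with DMSO and 2.08 to 3.94 with BYL719. In NF1KO the B3GALT4 means were 4.16 CPM with DMSO and 2.62 with BYL719.

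A4GALT, the globoside branch enzyme, came closest in this list to the pattern of GATA4 and HAUS1. It was at 8.26, 8.97 and 9.48 CPM in CTRL DMSO, 4.89, 5.54 and 6.09 in CTRL BYL719, 19.1 and 22.1 in NF1KO DMSO, and 25.2, 28.5 and 32.2 in NF1KO BYL719. A4GALT fell in CTRL (-0.69 ± 0.12, edgeR adjusted p = 0.000495), rose in NF1KO (0.48 ± 0.12, adjusted p = 0.0193) and differed by 1.17 ± 0.17 (adjusted p = 0.000951). GLA, the alpha-galactosidase that removes the sugar A4GALT adds, rose in both lines and more in NF1KO (0.32 ± 0.07 and 1.06 ± 0.08, difference 0.74 ± 0.10, adjusted p = 0.000626). With the block within each line, 8 genes of the list rose in CTRL, 8 rose and 7 fell in NF1KO, and 2 were higher and 3 lower in the difference. Among all 16081 genes this block called 6744 in NF1KO and 4345 in the difference.

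GPC3 (chrX:133535745-133985594, minus strand) was at 4.17, 5.12 and 4.90 CPM in CTRL DMSO and at 3.42, 4.24 and 4.23 in CTRL BYL719. The 2 groups overlapped. In NF1KO it was at 4.36 and 3.46 CPM with DMSO and at 8.39, 9.56 and 10.5 with BYL719. The first 3 groups overlapped one another, and the 3 NF1KO BYL719 libraries stood above all the others. The log2 fold change was -0.26 ± 0.14 in CTRL and 1.28 ± 0.16 in NF1KO, where the level under BYL719 was 243% of that in DMSO. The data therefore show a rise in the knockout line, and no clear fall in the control line for the knockout to lose. Its difference of 1.54 ± 0.21 came mostly from that rise.

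GPC4, the glypican gene next to GPC3 on the X chromosome, did not pass the test in CTRL (-0.15, edgeR adjusted p = 0.235) or in NF1KO (0.05, adjusted p = 0.807), nor did GPC1 (-0.11 and -0.05, adjusted p = 0.44 and 0.829). Of 23 tested glypicans, syndecans and heparan sulfate enzymes, 9 rose and 1 fell in CTRL (22.6% and 21.8% of all genes). In NF1KO 2 rose and 2 fell (10.3% and 8.47%). The differences that passed were 0 higher and 3 lower, with 5.68% and 3.71% of all genes called. The 3 were SDC2 (-0.69 ± 0.13, adjusted p = 0.00424), SDC1 (-0.57 ± 0.10, adjusted p = 0.00399) and the heparan sulfate polymerase EXT1 (-0.34 ± 0.09, adjusted p = 0.0391), all with a sign opposite to GPC3. SDC2 and SDC3 are syndecans, which carry heparan sulfate on a membrane-spanning core. They rose with BYL719 in CTRL by 0.97 ± 0.08 (adjusted p = 2.82e-06) and 0.61 ± 0.08 (adjusted p = 0.000103), and EXT1 by 0.44 ± 0.06 (adjusted p = 0.000123). GPC6 was the gene that fell (-0.82, adjusted p = 0.000884). The EXT1 difference lost its call without filtering (adjusted p = 0.0875) and without any 1 of 9 libraries (0.0614 to 0.213). Under the block within each line 3 genes of the list fell in CTRL, 11 rose in NF1KO, and 2 were higher and 4 lower in the difference. All-gene calls were then 6744 in NF1KO and 4345 in the difference.

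NEURL1B (chr5:172641263-172691540, plus strand; promoter shown above) was at 61.8, 63.7 and 70.3 CPM in CTRL DMSO and at 30.8, 25.4 and 25.9 in CTRL BYL719. In NF1KO it was at 35.0 and 36.0 CPM with DMSO and at 39.4, 43.4 and 42.2 with BYL719. No groups overlapped, and the highest group was CTRL DMSO, unlike in the other 6 genes except B4GALNT1. The log2 fold change with BYL719 was -1.25 ± 0.08 in CTRL and 0.23 ± 0.09 in NF1KO, a difference of 1.49 ± 0.13. Without the drug NEURL1B was lower in NF1KO (-0.88 ± 0.10) at 54.3% of the CTRL level, and with the drug it was higher (0.61 ± 0.08). The knockout line thus held NEURL1B between the CTRL levels with and without BYL719.

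NEURL1, the paralog, was at group means of 0.403 and 0.536 CPM in CTRL DMSO and BYL719, and at 2.29 and 2.86 in NF1KO. It did not pass the test for BYL719 in CTRL (edgeR adjusted p = 0.208) or NF1KO (adjusted p = 0.313), and was higher in NF1KO averaged over treatments (2.46, adjusted p = 1.48e-07), a contrast in which 44.9% of all genes were called, 23.3% higher and 21.6% lower. Of 33 tested genes of Notch ligands, receptors and regulators, 8 rose and 2 fell in CTRL (22.6% and 21.8% of all genes). In NF1KO 2 rose and 1 fell (10.3% and 8.47%), and 2 were higher and 3 lower in the difference (5.68% and 3.71%). The 2 that fell in CTRL were HEY2 and NRARP, both transcriptional targets of Notch. HEY2 was at 6.06, 7.34 and 8.19 CPM in CTRL DMSO, 2.47, 2.03 and 3.11 in CTRL BYL719, 4.74 and 6.67 in NF1KO DMSO, and 4.98, 5.64 and 4.93 in NF1KO BYL719. Its log2 fold change was -1.50 ± 0.18 in CTRL (adjusted p = 3.32e-05) and -0.14 ± 0.19 in NF1KO, and the difference of 1.36 ± 0.26 passed (adjusted p = 0.0061).

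NRARP fell by less (-0.40 ± 0.07 in CTRL, edgeR adjusted p = 0.000814) and had a difference of 0.59 ± 0.11 (adjusted p = 0.00475). HES1, a further Notch target, was among the 8 genes that rose in CTRL, so the targets in the list did not move together. Among the others, the coactivator MAML2 rose in both lines (1.48 ± 0.11 and 1.40 ± 0.14, adjusted p = 6.21e-07 and 9.37e-05) and the ligase DTX3 rose in CTRL (0.49 ± 0.07, adjusted p = 0.000179). PSEN2, a catalytic subunit of gamma-secretase, was at -0.04 ± 0.06 in CTRL and fell in NF1KO (-0.41 ± 0.07, adjusted p = 0.00184), a difference of -0.37 ± 0.09 (adjusted p = 0.025) that was lost without filtering (adjusted p = 0.0546) and without any 1 of 7 libraries (0.0529 to 0.155). With the block within each line the list's CTRL counts were 12 higher and 6 lower, those of NF1KO 9 and 3, and those of the difference 4 and 8. Calls over all genes then numbered 6744 in NF1KO and 4345 in the difference.

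HAUS1 (chr18:46104385-46128333, plus strand; promoter shown above) was at 15.7, 16.7 and 16.9 CPM in CTRL DMSO and at 9.59, 10.3 and 9.87 in CTRL BYL719. In NF1KO it was at 24.7 and 24.7 CPM with DMSO and at 49.9, 50.4 and 57.1 with BYL719. No groups overlapped. The log2 fold change was -0.73 ± 0.07 in CTRL and 1.09 ± 0.08 in NF1KO, a difference of 1.81 ± 0.11, and under BYL719 the NF1KO level was 5.29-fold that of CTRL. BYL719 left 60.4% of HAUS1 in CTRL and brought it to 212% of the DMSO level in NF1KO.

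The other 7 augmin subunits, which work in the same complex, did not rise with HAUS1. In CTRL 6 of the 7 fell, as did 21.8% of all genes. HAUS8 had the largest fall (log2 fold change -1.42 ± 0.13, edgeR adjusted p = 4.05e-06), and HAUS2, HAUS3, HAUS5, HAUS6 and HAUS7 had values from -0.35 to -0.58 (adjusted p = 0.000286 to 0.0484). HAUS3 held its call least well and lost it under 12 of 21 alternatives (adjusted p = 0.0527 to 0.179). HAUS4 did not pass (-0.10 ± 0.09, adjusted p = 0.412). In NF1KO, HAUS8 fell (-0.64 ± 0.14, adjusted p = 0.0079; 0.113 without NF1KO DMSO replicate 3) and the other 6 did not pass, with values from -0.22 for HAUS7 to 0.24 for HAUS4. With the block within each line HAUS4 rose in NF1KO (0.27, adjusted p = 0.00241). The difference between the lines passed for HAUS8 (0.78 ± 0.19, adjusted p = 0.023) and HAUS5 (0.53 ± 0.15, adjusted p = 0.0399), and these calls were lost without any 1 of 6 libraries for HAUS8 (0.0505 to 0.139) and any 1 of 9 for HAUS5 (0.0502 to 0.188).

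**Figure D2:**
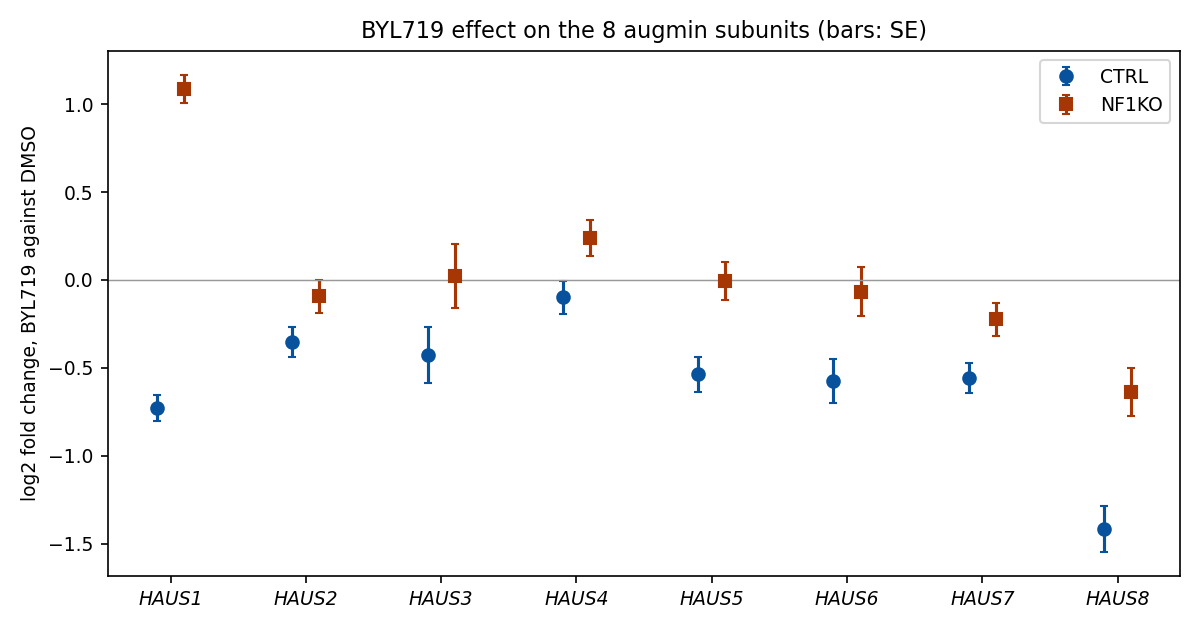
Log2 fold change with BYL719 against DMSO for the 8 augmin subunits in CTRL (circles) and NF1KO (squares), with SE from the fit over 11 libraries. HAUS1 stands at 1.09 in NF1KO, while the other subunits lie between -0.64 and 0.24.

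In the wider list of augmin and gamma-tubulin genes, 21 of 21 were tested. In CTRL 14 fell and 0 rose (median -0.54), where 21.8% of all genes fell and 22.6% rose. In NF1KO 3 fell and 0 rose (median -0.11), where 8.47% fell and 10.3% rose. The difference was higher in 6 and lower in 0, where 5.68% and 3.71% of all genes were (median 0.40, against 0.01 for all genes). TUBG1, gamma-tubulin itself, fell in both lines (-1.05 ± 0.06, edgeR adjusted p = 6.49e-08, and -0.55 ± 0.06, adjusted p = 0.000176; difference 0.50 ± 0.08, adjusted p = 0.00259). MZT1 and NEDD1, which attach and recruit the gamma-tubulin ring complex, fell in CTRL (-0.93 ± 0.08 and -0.73 ± 0.08, adjusted p = 2.82e-06 and 2.35e-05), with differences of 0.81 ± 0.12 (adjusted p = 0.00113) and 0.55 ± 0.12 (adjusted p = 0.0154; 0.104 without NF1KO DMSO replicate 3). Under the block within each line, 18 genes were higher in the difference, and 2 rose and 10 fell in NF1KO. It also raised the calls over all genes, to 4345 in the difference and 6744 in NF1KO.

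The mitosis genes carry the pattern by which the 7 genes were picked. Of 25 such genes, 25 fell in CTRL (median -1.50), 12 fell in NF1KO (median -0.29), and the difference was higher in 22 (median 1.25). The shares of all genes were 21.8%, 8.47% and 5.68%. Log2 fold changes in CTRL ran from -1.85 for CDC20 to -1.10 for CENPF, and in NF1KO from -0.69 for CDC20 to 0.09 for CENPF. Across all tested genes 847 (5.27%) were lower with BYL719 in CTRL and higher in the difference, and 262 (1.63%) also had a log2 fold change above 0 in NF1KO. These mitosis genes thus moved with the drug as 6 of the 7 genes did in CTRL, and the part of a change in dividing cells in the values of the 7 was not tested. The 847 became 2030 with the block within each line, and 476 and 502 without NF1KO DMSO replicate 3 and replicate 2.

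**Figure D3:**
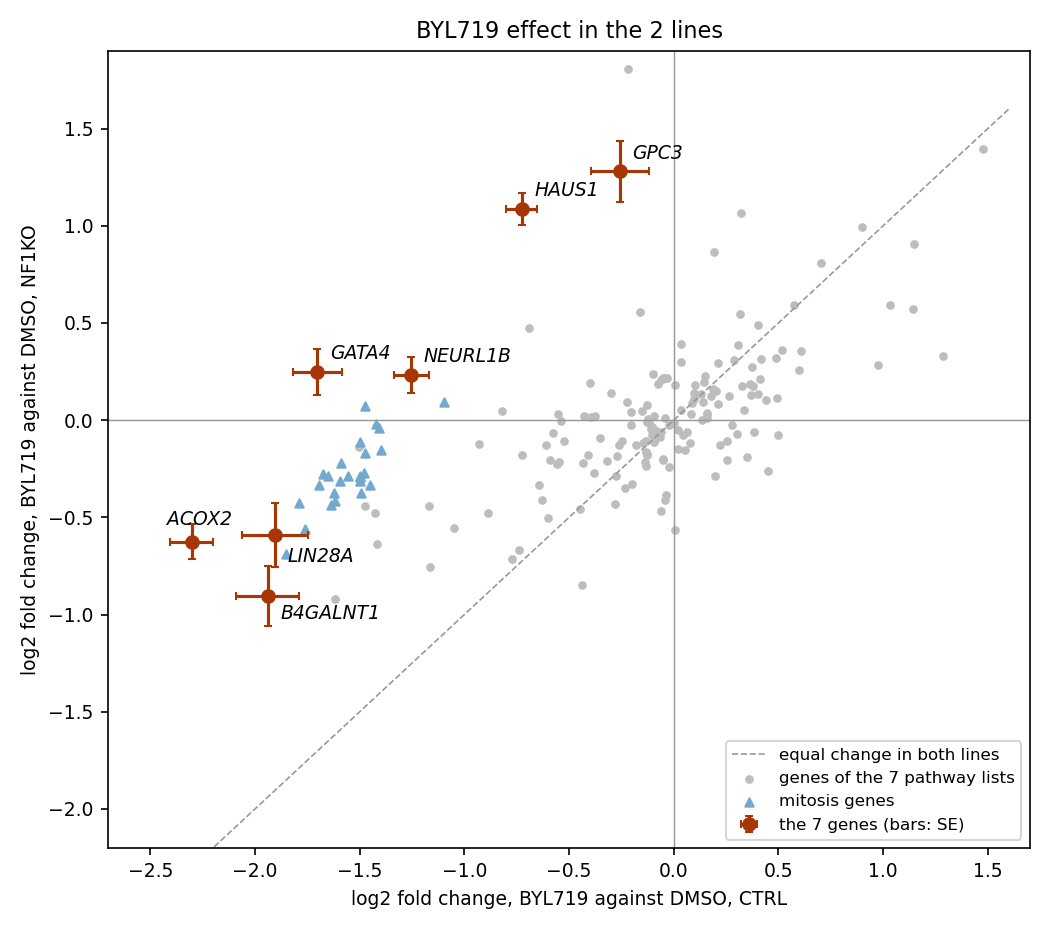
Log2 fold change with BYL719 in CTRL (x axis) against NF1KO (y axis) for the 7 genes with SE bars, the 25 mitosis genes (triangles) and the tested genes of the 7 pathway lists (grey). All 7 genes lie above the dashed line of equal change: HAUS1 at 1.09 and GPC3 at 1.28 are highest on the y axis among them, and ACOX2, LIN28A and B4GALNT1 lie below 0 on both axes.

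The difference between the lines averaged over DMSO and BYL719, with equal weights, contains the BYL719 libraries and with them part of the difference by which the genes were picked, so it is given here as a description without a test. ACOX2 was higher in NF1KO by 3.45 ± 0.07 (log2, SE), LIN28A by 2.24 ± 0.11, HAUS1 by 1.50 ± 0.05 and GATA4 by 1.39 ± 0.08. For these 4, all 5 NF1KO libraries were above all 6 CTRL libraries, as were those of 7.38% of all genes, and 7.8% of genes were lower in the same way. For ACOX2 and LIN28A most of this distance was present without the drug, and for HAUS1 and GATA4 the DMSO values were under 1 and the BYL719 values over 2 on the log2 scale.

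GPC3 (0.49 ± 0.10) and B4GALNT1 (0.48 ± 0.11) had averages above 0 with overlapping libraries. Their DMSO values were -0.28 ± 0.16 and -0.03 ± 0.15, and their BYL719 values 1.26 ± 0.14 and 1.00 ± 0.15, so the average came from the BYL719 libraries alone. NEURL1B averaged -0.14 ± 0.06. Its values had opposite signs in the 2 treatments, and the average was 0.012 with treatments weighted by their NF1KO libraries. The median of the 7 was 1.39, against 0.00 for all genes.

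In DMSO alone, also described without a test since these libraries entered the choice, ACOX2 (2.61 ± 0.09), LIN28A (1.58 ± 0.16), HAUS1 (0.59 ± 0.08) and GATA4 (0.42 ± 0.12) were higher in NF1KO with no overlap (27.9% of genes), and NEURL1B was lower (28.2% of genes). By adjusted p 9.99% of all genes were higher and 10.3% lower in DMSO, and 39.8% were called in either direction in BYL719. Under BYL719 all 7 were higher with no overlap (25.2% of genes). The log2 differences there were 4.29 ± 0.10 for ACOX2, 2.89 ± 0.16 for LIN28A, 2.40 ± 0.08 for HAUS1 and 2.37 ± 0.12 for GATA4.

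**Figure D4:**
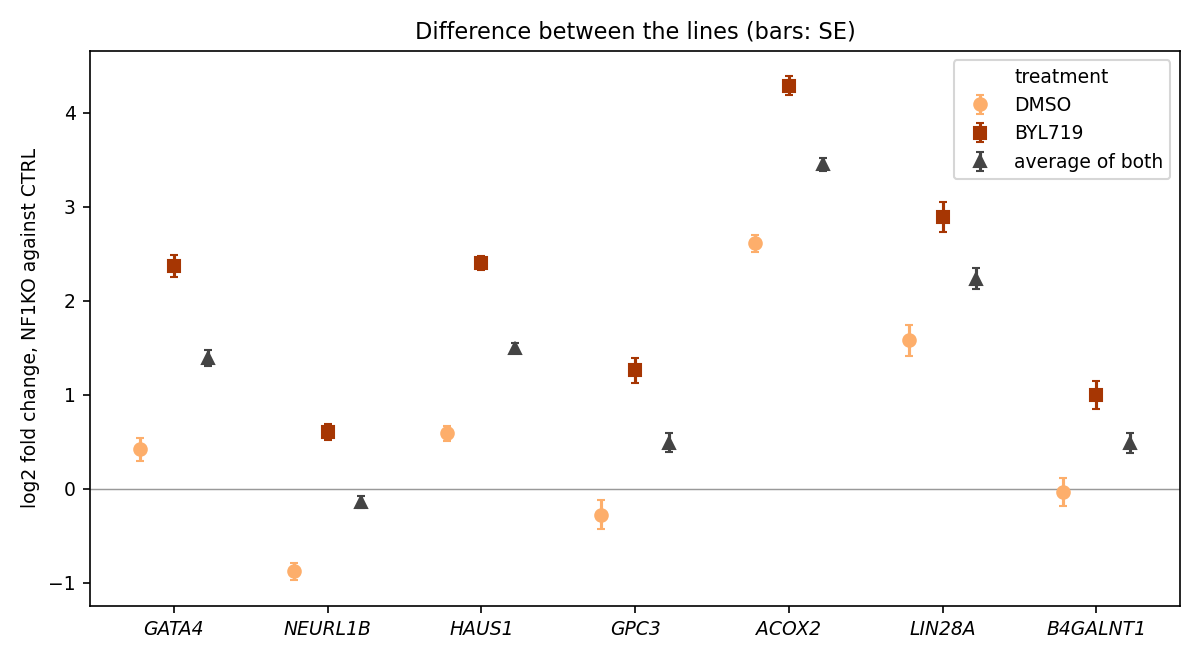
Log2 fold change of NF1KO against CTRL in DMSO (circles), in BYL719 (squares) and averaged over both (triangles), with SE from the fit. The BYL719 value lies above the DMSO value for all 7 genes, and the average is above 0 for all but NEURL1B at -0.14.

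Of 14 tested genes that flank the 7 in the genome, 6 fell and 3 rose with BYL719 in CTRL (21.8% and 22.6% of all genes). The difference was higher in 2 and lower in 1 (5.68% and 3.71% of all genes). Among these CTRL calls, those of ARHGEF25, CCDC160 and FAM167A were lost under 12, 2 and 4 of 21 alternatives. KCTD6, a cullin ligase adaptor gene 2775 bases from ACOX2, fell with BYL719 in CTRL (-0.50 ± 0.07, edgeR adjusted p = 6.44e-05) and had a difference of 0.55 ± 0.10 (adjusted p = 0.00359). CFAP20DC, on the other side of ACOX2, gave -0.50 ± 0.08 (adjusted p = 0.000288) and 0.46 ± 0.12 (adjusted p = 0.0307; lost without any 1 of 6 libraries, 0.0542 to 0.146). ATP5F1A, which shares the promoter region of HAUS1, fell in CTRL (-0.50 ± 0.09, adjusted p = 0.000726) and did not change by the test in NF1KO (-0.07 ± 0.10, adjusted p = 0.687), where HAUS1 stood at 1.09. The ATP5F1A difference of 0.43 ± 0.13 did not pass (edgeR adjusted p = 0.0677). In GENCODE v29 the first exons of these 2 genes meet, with HAUS1 from 46104332 and ATP5F1A up to 46104334, and whether counting used strand is not given in the sources used here. DUSP1, the MAP kinase phosphatase gene after NEURL1B, went the other way (1.49 ± 0.13 in CTRL, adjusted p = 3.68e-06; difference -1.01 ± 0.20, adjusted p = 0.00807, and 0.0538 without NF1KO DMSO replicate 2). CRYBG2, before LIN28A, fell in both lines (-0.85 ± 0.07, adjusted p = 1.71e-06, and -0.79 ± 0.08, adjusted p = 8.13e-05). DHDDS, 2592 bases after LIN28A, did not pass in CTRL (-0.09, adjusted p = 0.195) and fell in NF1KO (-0.22, adjusted p = 0.0229). By RefSeq coordinates, genes that overlap the 7 and have a row in the table held at most 1.2% of the counts of the gene they overlap. ATP5F1A, which meets HAUS1 in GENCODE v29 alone, is not among them and held 2690% of the HAUS1 counts. The part of ATP5F1A reads in the HAUS1 counts was not tested.

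Across the 11 libraries, which share line and treatment, log2 levels of ACOX2 and LIN28A (r = 0.984), GATA4 and LIN28A (r = 0.951) and GATA4 and ACOX2 (r = 0.943) ran together, and B4GALNT1 and GPC3 did not (r = -0.02). Among 10708 other genes, the profile most like ACOX2 was that of MMRN2, an extracellular matrix protein of vessels (r = 0.997), followed by SNCG, gamma-synuclein (r = 0.993). MMRN2 was also among the 3 most alike for LIN28A (r = 0.985), after KATNA1, the katanin catalytic subunit (r = 0.994), and KALRN (r = 0.989). FAS, the death receptor, was first for GATA4 (r = 0.987), with log2 fold changes of -1.30 in CTRL and -0.04 in NF1KO, and the ACOX2 neighbour KCTD6 was among its first 3 (r = 0.984). The kinase PDK4, which turns off pyruvate dehydrogenase, was second for GPC3 (r = 0.932; -0.16 and 1.22), after ZNF703 (r = 0.951). PYGL, liver glycogen phosphorylase, was first for HAUS1 (r = 0.989), WDR62, a spindle pole protein, for B4GALNT1 (r = 0.994), and KIAA1328 for NEURL1B (r = 0.982).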

How the data were processed

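Whole-number gene counts were deposited by the authors in 1 table with a column for 11 of 12 labelled samples; per the submitters' processing notes STAR 2.5.2a, SAMtools 1.7, Picard 2.9.2 and edgeR were used with build hg38, and per the labels' protocols the poly(A) library kit keeps strand. The counting tool, annotation and strand setting are not given in the sources used here. Counts were filtered (filterByExpr), scaled by TMM and fitted in edgeR 4.0.16 (R 4.3.3) with 1 mean per group over all 11 libraries (7 residual degrees of freedom, quasi-likelihood F test, 2-sided, Benjamini-Hochberg over 16081 genes, threshold 0.05), after a test on simulated data. SE is the log2 fold change divided by the root of F, and errors of CPM are SD. The members and lists were chosen with earlier results of these data known. The averaged line contrast was planned as the members' test, but it contains part of the difference they were chosen by, so no test of a member is reported. From each list the up to 3 genes with the smallest adjusted p in the CTRL response and in the difference were named, with close paralogs (1 gene under this rule is not reported here), and for each member the 3 genes with the highest r of log2 CPM (prior count 2). Some genes that count among 5 or fewer, such as GPC6 and HES1, and ALB were named after their values were seen. Same-numbered CTRL libraries deviated together (r = 0.595, 0.337 and 0.318). CTRL libraries numbered 2 and 3 also did so across numbers (0.228 and 0.177), so these values do not settle a pairing by number. The reported fit has no block, so its SE and adjusted p treat the libraries as unpaired. Only the blocked alternatives take numbers as pairs, and their values stand where counts moved over 1.5-fold. Same-numbered NF1KO libraries had r of 0.084 and 0.149. Alternatives were RLE and upper-quartile scaling, other filters, DESeq2 1.42.0, limma-voom 3.58.1, blocks, fewer groups, other weights and left-out libraries. Sequences came from RefSeq (GRCh38.p14) and GENCODE v29; coordinates are RefSeq's and strands GENCODE's.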

Additional observations from a re-analysis of the deposited data

Results flagged for a closer look

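The sign of the response to BYL719 differed between the lines in every library for GATA4 (difference on the log2 scale 1.95), NEURL1B (1.49) and HAUS1 (1.81): all CTRL libraries were lower with the drug and all NF1KO libraries higher. These genes were picked for this, and the difference was not tested here. The other genes, from the lists or flanking the 7, stand here because they passed edgeR's test of the difference of the BYL719 effect. Passing was thus the rule of choice and adds no support. Calls of ABCD3, HAUS5, HAUS8, CFAP20DC, SRF, EXT1 and PSEN2 were lost without any 1 of 6 to 9 libraries. Those of ACAA1, NEDD1 and DUSP1 were lost without 1 library. Genes with a positive difference were ABCD3 (0.41), NRARP (0.59), HEY2 (1.36), MZT1 (0.81), TUBG1 (0.50), NEDD1 (0.55), GLA (0.74), A4GALT (1.17), CDC25A (0.95), IGF2BP3 (1.03), LIN28B (0.72), HAUS5 (0.53), HAUS8 (0.78), KCTD6 (0.55) and CFAP20DC (0.46). Genes with a negative difference, a lower log2 fold change in NF1KO than in CTRL, were SRF (-0.37), ACAA1 (-0.46), SDC1 (-0.57), SDC2 (-0.69), EXT1 (-0.34), PSEN2 (-0.37) and DUSP1 (-1.01).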

How the results depend on the processing

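The averaged line difference of 6 genes stayed above 0 in all 20 alternatives run, from 0.37 for B4GALNT1 to 3.62 for ACOX2. NEURL1B turned from -0.14 to 0.012 when treatments were weighted by their NF1KO libraries, and stayed below 0 in the others. Genes called in the NF1KO response numbered 3014 and became 4664 with the replicate block, 6744 with the block within each line, 5312 without both CTRL libraries numbered 1, and 788 to 3962 with 1 library left out (1048 and 788 without NF1KO DMSO replicates 2 and 3, 1794 without NF1KO BYL719 replicate 2). Genes called in the difference numbered 1510 and became 4345 with the block within each line, 2411 without both CTRL libraries numbered 1, and 740 to 2155 with 1 library left out (766 and 740 without NF1KO DMSO replicates 2 and 3). The NF1KO against CTRL count in DMSO of 3269 ran from 1523 to 4256 with 1 library left out (1561 and 1523 without the same 2). The cause was not tested. A lone library left in an arm took its spread from the other groups. The other gene results rerun were those of genes named by the rule, of augmin subunits and of flanking genes, nearly all in CTRL or the difference. Of 59 such results called, 43 kept their call in every alternative run and 16 lost it in 1 or more. Most stated calls in the NF1KO response, such as those of A4GALT, IGF2BP3, LIN28B and DHDDS, were not rerun. Nor were the CTRL calls of B3GALT4, GPC6 and NRARP. With the block within each line the averaged line difference could not be fitted. With 2 NF1KO DMSO libraries, effects in that line rest on the fewest samples.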
